A study of Ambystoma mexicanum with 12 samples.

Results

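The CYP26 genes encode cytochrome P450 enzymes that oxidize retinoic acid. Their transcripts were measured here in the blastema, the cell mass that rebuilds a lost limb, on cut forelimbs of juvenile axolotls (Ambystoma mexicanum). The members were the probe sets whose gene symbol in the platform's annotation is CYP26A1, CYP26B1 or CYP26C1, and each gene had 1 probe set, so 3 of 8639 named genes and 3 of 20035 tested probe sets are described. Of the 12 samples, 4 came from animals kept in RA (retinoic acid itself), 4 from animals kept in LE135 (a synthetic compound known to block the receptor RAR beta) and 4 from animals kept in DMSO, the vehicle. All animals had a forelimb cut through the distal lower arm, were dosed between days 7 and 14 after the cut, and gave a blastema on day 14. Each sample pooled single forelimbs of 4 animals, from 16 animals per treatment and 48 in all, with a mean total length of 8.8 cm (7.4 to 10.1 cm). The drug concentrations, the animals' strain and their age were not stated in what was used here. By the study's design text, DMSO limbs go on to regenerate normally, RA limbs duplicate along the proximodistal axis and LE135 limbs end truncated.

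Retinoic acid is made from retinol by way of retinaldehyde, binds nuclear receptors of the RAR and RXR families, and acts on transcription at their target genes. CYP26 enzymes hydroxylate it to products that are cleared, and so set how far and how long a cell is exposed. In vertebrates CYP26A1 is a well known target gene of the retinoic acid receptors, so that the ligand induces an enzyme of its own removal. In the mouse limb bud CYP26B1 is expressed distally and keeps retinoic acid low there. Retinoic acid given to a regenerating salamander limb is known to shift the blastema to a more proximal identity. In the axolotl RefSeq gene table CYP26A1 and CYP26C1 are neighbouring protein-coding genes, between MYOF and EXOC6, and CYP26B1 lies beside EXOC6B.

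Values are RMA levels on the log2 scale, so a difference of 1 is a 2-fold difference. A single linear model over all probe sets (limma, 12 samples) gave every fold change, standard error (SE), 95% interval and p, with Benjamini-Hochberg adjustment over 20035 probe sets at 0.05, and the words rose and fell are used of what passed it. The tissue carried transcripts of connective tissue and of epidermis. Of their marker genes 11 of 14 and 10 of 16 had a named probe set, and none of those measured had a mean level under 5. The 3 measured pigment cell markers (TYR, TYRP1 and DCT) were all under 5. Samples DMSO 4 and LE135 4 were the least like their own groups, with mean correlations to the other samples of the group of 0.978 and 0.986, against 0.989 to 0.995 for the other 10 samples. Results for the CYP26 genes are therefore also given without these 2 samples. The arrays measured pooled tissue, in which fewer cells of a type and less RNA per cell cannot be told apart.

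CYP26A1 was high in every drug-treated sample and both low and uneven in the vehicle samples. Its log2 levels were 12.46, 12.45, 12.63 and 12.77 in RA 1 to RA 4, and 12.12, 12.10, 12.54 and 12.28 in LE135 1 to LE135 4. In DMSO 1 to DMSO 4 they were 5.05, 8.31, 8.82 and 4.66. Neither drug group overlapped with DMSO, while the RA and LE135 samples overlapped each other. The lowest RA sample exceeded the highest DMSO sample by 3.63 (12.3-fold), and the lowest LE135 sample exceeded it by 3.28 (9.70-fold).

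CYP26B1 was graded in its group means, with RA above LE135 and LE135 above DMSO. It stood at 9.83, 9.51, 9.56 and 9.56 in RA 1 to RA 4, at 8.60, 8.86, 8.95 and 7.61 in LE135 1 to LE135 4, and at 6.84, 7.62, 7.49 and 6.14 in DMSO 1 to DMSO 4. The RA samples lay above all others. LE135 4, the lowest of its group, lay 0.01 below DMSO 2, and the other 3 LE135 samples lay above all DMSO samples.

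CYP26C1, which in other vertebrates shares the retinoic acid oxidase activity, read low throughout. Its probe set has an identifier ending in -r, where those of CYP26A1 and CYP26B1 end in -f. What the ending means is not stated in what was used here. Whether the CYP26C1 probe set reads the sense transcript was not tested, which limits every CYP26C1 value below. The ending -r is shared by probe sets that read high, as those of DHRS3 (mean 12.43 in RA) and ALDH1A3 (mean 10.44 in RA), described below. Their levels do not show which strand the CYP26C1 probe set reads. The CYP26C1 levels were 3.92, 3.92, 3.61 and 3.87 in RA 1 to RA 4, 4.03, 4.03, 3.99 and 3.97 in LE135 1 to LE135 4, and 4.09, 3.91, 3.99 and 4.02 in DMSO 1 to DMSO 4. The minimum of each array lay between 3.05 and 3.15, and 9.96% of probe sets had a mean level at or below that of CYP26C1.

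**Figure D1:**
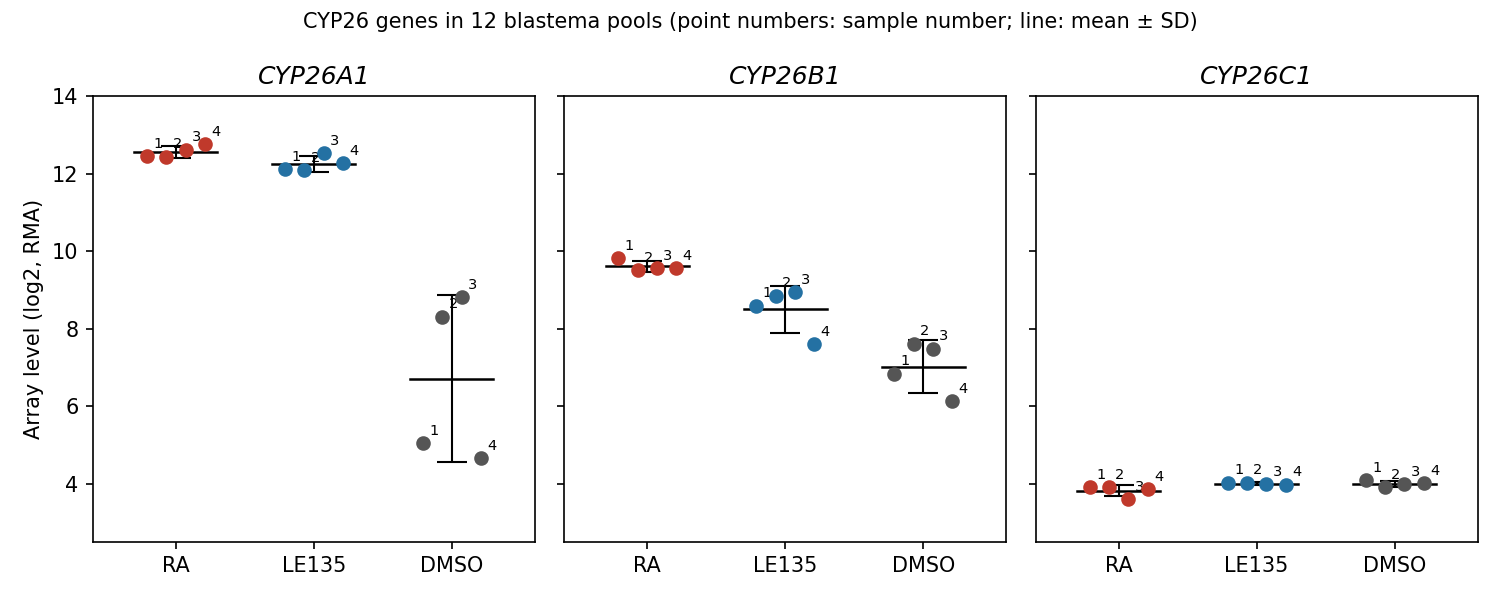
Log2 array levels of CYP26A1, CYP26B1 and CYP26C1 (vertical axis) in the RA, LE135 and DMSO groups (horizontal axis). Each point is 1 pool of 4 animals, the number beside it is the sample number, and the lines are the group mean ± SD (n = 4). CYP26A1 lies between 12.10 and 12.77 in all 8 drug samples and is spread from 4.66 to 8.82 in DMSO. The CYP26B1 group means step down through RA, LE135 and DMSO, and CYP26C1 stays near 4 in all 12.

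RA against DMSO asks what the blastema expresses when its limb will duplicate proximodistal structures. CYP26A1 averaged 12.58 ± 0.15 in RA and 6.71 ± 2.16 in DMSO (SD, n = 4 each), a rise of 5.87 on the log2 scale (58.3-fold, SE 0.79, 95% interval 4.13 to 7.60, limma adjusted p = 0.00347). It was the largest rise of all probe sets in this comparison. CYP26B1 averaged 9.62 ± 0.14 in RA and 7.02 ± 0.68 in DMSO (SD, n = 4 each), a rise of 2.59 (6.04-fold, SE 0.34, 95% interval 1.85 to 3.34, limma adjusted p = 0.00292). CYP26C1 averaged 3.83 ± 0.15 in RA and 4.00 ± 0.07 in DMSO, a difference of -0.17 that did not pass (95% interval -0.33 to -0.01, limma adjusted p = 0.290). Thus 2 of the 3 genes rose, where 1.62% of all probe sets rose in this comparison (2.64% changed in either direction), and in both the RA samples lay wholly above the DMSO samples, as in 5.54% of probe sets. Both calls held in each of 12 fits that left out 1 sample, with adjusted p up to 0.0148 for both genes. They also held when only the 8 RA and DMSO samples were fitted (limma adjusted p = 0.0232 for CYP26A1 and 0.00848 for CYP26B1). There the interval of CYP26A1 was wider, at 3.75 to 7.98. Without DMSO 4 and LE135 4 the rises were 5.18 for CYP26A1 and 2.30 for CYP26B1 (limma adjusted p = 0.00319 and 0.000155).

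LE135 against DMSO asks the same of blastemas whose limbs will end truncated. CYP26A1 averaged 12.26 ± 0.20 in LE135 against the 6.71 ± 2.16 of DMSO (SD, n = 4 each), a rise of 5.55 (46.8-fold, SE 0.79, 95% interval 3.81 to 7.29, limma adjusted p = 0.00524), again the largest of all probe sets. CYP26B1 averaged 8.50 ± 0.61 in LE135 and 7.02 ± 0.68 in DMSO (SD, n = 4 each), a difference of 1.48 (2.79-fold, SE 0.34, 95% interval 0.73 to 2.23) that missed the threshold (limma adjusted p = 0.0505). With the replicate number as a block it passed (limma adjusted p = 0.0212). The sample titles state no pairing, and correlations in these same data do not establish that the numbers pair these 2 groups. CYP26C1 averaged 4.01 ± 0.03 in LE135 and differed by 0.01 (95% interval -0.15 to 0.17, limma adjusted p = 0.983). So 1 of the 3 genes rose, where 0.893% of all probe sets did (2.09% changed in either direction), and in that gene alone of the 3 the LE135 samples lay wholly above the DMSO samples, as in 3.57% of probe sets. The CYP26A1 rise held in each of 12 omissions of 1 sample (limma adjusted p up to 0.0190). Without DMSO 4 and LE135 4 it was 4.86 and passed (limma adjusted p = 0.00818). When only the 8 LE135 and DMSO samples were fitted, the CYP26A1 rise no longer passed (limma adjusted p = 0.0502). The CYP26B1 difference passed in 2 of 12 omissions of 1 sample. These were of LE135 4, at 1.78 (limma adjusted p = 0.0152), and of DMSO 2, at 1.68 (adjusted p = 0.0466), with adjusted p up to 0.136 otherwise. It also passed without both DMSO 4 and LE135 4, at 1.48 (adjusted p = 0.00270). It did not pass in the fit of 8 samples (limma adjusted p = 0.190) or with median centring (limma adjusted p = 0.0606). An exact permutation test gave it p = 0.0571, unadjusted.

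RA against LE135 sets the 2 drug groups side by side. No CYP26 gene passed, where 0.02% of all probe sets did (4 of 20035, limma; 1537, or 7.67%, had an unadjusted p under 0.05). CYP26A1 was 0.32 higher in RA (95% interval -1.42 to 2.06, limma adjusted p = 0.956). That interval carries the spread of the DMSO samples, which share the model. Fitted on the 8 drug samples alone, the interval was 0.05 to 0.58, or 1.04-fold to 1.50-fold (unadjusted p = 0.0250 and adjusted p = 0.430, limma). CYP26B1 was 1.11 higher in RA (2.16-fold, 95% interval 0.37 to 1.86, limma adjusted p = 0.403). All 4 RA samples lay above all 4 LE135 samples, as in 3.75% of all probe sets. An exact permutation test over the 8 samples gave CYP26B1 a two-sided p of 0.0286, unadjusted, which is the smallest such a design can give. Groups that do not overlap always give this p, so it repeats the lack of overlap and adds no second test. With samples weighted by their agreement with their group, the CYP26B1 difference was 0.94 and passed (limma adjusted p = 0.0490). DMSO 4 and LE135 4 had the lowest weights there. Without these 2 samples the CYP26B1 difference was 0.82 and did not pass. Nor did it pass with the replicate number as a block (limma adjusted p = 0.183) or in the fit of 8 samples (limma adjusted p = 0.213). It passed in none of the 12 omissions of 1 sample (limma adjusted p = 0.164 to 0.879). CYP26C1 differed by -0.18 (95% interval -0.34 to -0.02, limma adjusted p = 0.598), with its 4 RA samples below the 4 LE135 samples. Groups that did not overlap, in either direction, made up 6.93% of probe sets in this comparison.

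Across the 3 treatments at once the moderated F test gave adjusted p = 0.00424 for CYP26A1, 0.00637 for CYP26B1 and 0.340 for CYP26C1 (limma, 2.68% of probe sets passed). The F test gives no order of treatments. For CYP26A1 the RA and LE135 samples, which overlapped, lay above DMSO. For CYP26B1 the order of group means was RA above LE135 above DMSO, where only RA and DMSO differed past the threshold.

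**Figure D2:**
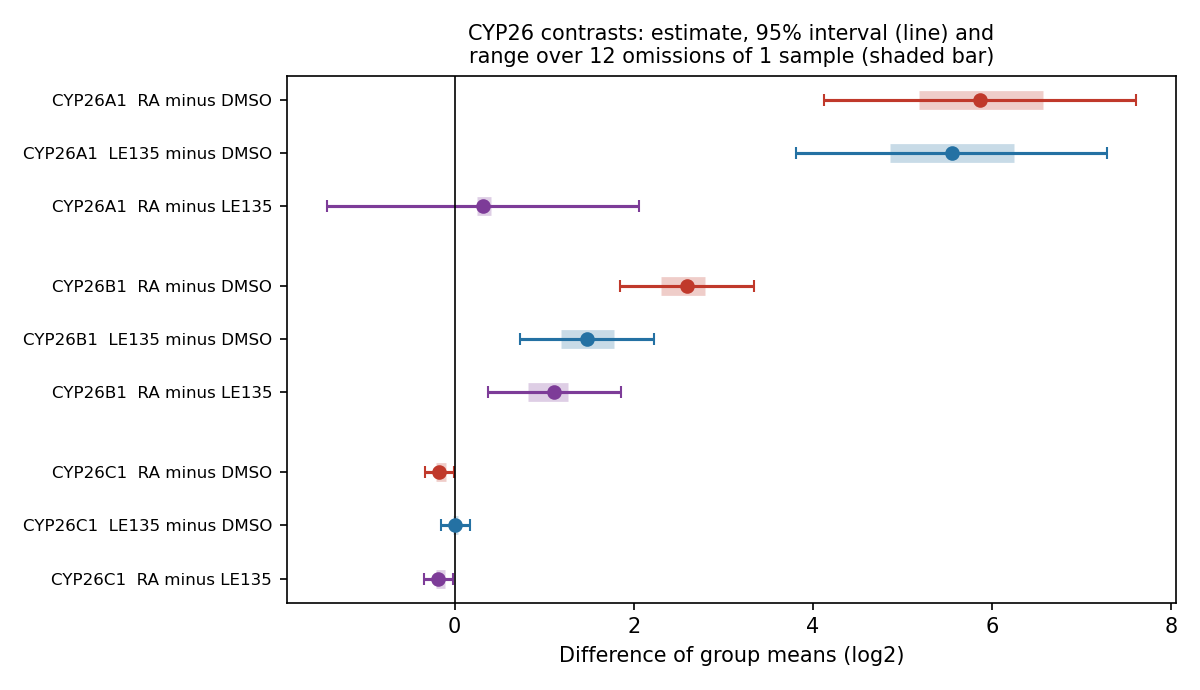
Differences of group means on the log2 scale (horizontal axis) for each CYP26 gene and comparison (rows). Points are the estimates, lines the 95% intervals of the fit over 12 samples, and shaded bars the range over 12 fits that each left out 1 sample. The CYP26A1 intervals against DMSO run from 3.81 to 7.60, and that of CYP26A1 between RA and LE135 spans 0.

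The spread between DMSO pools was itself a feature of CYP26A1. Its highest and lowest DMSO samples differed by 4.16 on the log2 scale, against 0.32 between RA samples and 0.44 between LE135 samples. No detection calls were used, and whether the low readings in DMSO 4 (4.66) and DMSO 1 (5.05) were above background was not tested, so this range and the folds of CYP26A1 against DMSO may be understated. The SD over the 4 DMSO samples, 2.16, ranked 13 among the 20035 probe sets, whose median SD was 0.155. Within RA and LE135 the ranks of CYP26A1 by SD were 5227 and 6146. No DMSO sample lay between 5.05 and 8.31. With 1 probe set per named gene CYP26A1 ranked 4 by DMSO SD. The other genes among the leading 5 were PVALB, MYL1 and MYL3, which encode muscle proteins, and RRAD, a small GTPase, with SDs of 3.16, 2.25, 2.15 and 2.42. In those 4 genes the lowest DMSO sample was DMSO 4 and the next lowest was DMSO 3, whereas DMSO 3 was the highest for CYP26A1.

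CYP26B1 took a like order in DMSO on a smaller scale. DMSO 4 and DMSO 1 were its 2 lowest samples, as for CYP26A1, and its range was 1.48 (2.78-fold, SD 0.68, rank 627 among probe sets). Its range was 0.31 in RA and 1.34 in LE135, where LE135 4 was the lowest sample. Over the 12 samples CYP26A1 and CYP26B1 correlated at Pearson r = 0.885, over points that share the 3 treatments. For CYP26C1 the DMSO SD was 0.07 and the rank 16731.

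Markers of other cell types were set beside this spread. The mean log2 level of 12 measured skeletal muscle markers (of 20) ran from 7.47 to 9.77 over the RA samples, from 8.13 to 9.20 over the LE135 samples and from 6.86 to 9.01 over the DMSO samples, and among these markers MYOG had a mean under 5. In DMSO 1 to DMSO 4 it was 8.95, 9.01, 7.95 and 6.86. The mean of 11 connective tissue markers (of 14) ran from 10.72 to 10.97 in RA, from 10.60 to 10.79 in LE135 and from 10.12 to 10.66 in DMSO. In DMSO 1 to DMSO 4 it was 10.32, 10.66, 10.52 and 10.12, with DMSO 4 and DMSO 1 again lowest. Single markers differed in this, as FN1 was lowest in DMSO 4 among the DMSO samples (9.16), while PDGFRA (7.65) and LUM (13.24) were highest there. The mean of 10 epidermis markers (of 16) ran from 10.43 to 10.68 in RA, from 10.41 to 10.66 in LE135 and from 10.64 to 10.85 in DMSO, with DMSO 1 the highest of its group. Single markers of both tissues passed the test in the comparisons in which CYP26 genes rose. Among the 11 connective tissue markers FAP (1.60) and DCN (0.32) rose and MSX2 (-0.76) fell under RA, and FAP (1.39) rose under LE135. Among the 10 epidermis markers ST14 (-0.43) fell under RA, while under LE135 TP63 (-0.81), JUP (-0.35), ST14 (-0.47) and TGM1 (-1.63) fell and EHF (2.18) rose. Of the muscle markers DES (0.92) rose under RA. These genes were named after their values were seen. Of the other lists, the mean of 12 cartilage and bone markers (of 16, MATN1 and MATN3 under 5) ran from 7.21 to 7.70 in RA, from 7.31 to 7.84 in LE135 and from 7.31 to 8.28 in DMSO, highest in DMSO 4. That of 11 macrophage and neutrophil markers (of 14) ran from 8.42 to 8.85 in RA, from 8.40 to 8.87 in LE135 and from 8.53 to 8.61 in DMSO. That of 3 erythrocyte markers (of 10, SLC4A1 under 5) ran from 6.68 to 6.78 in RA and from 5.48 to 7.42 in LE135. In DMSO it ran from 6.32 in DMSO 1 to 6.60 in DMSO 4. The 8 endothelial markers (of 10, KDR and TIE1 under 5) and the 6 Schwann cell and nerve markers (of 10, NEFL, NEFM and ERBB3 under 5) had overlapping means in the 3 treatments. In DMSO 1 to DMSO 4 the endothelial mean was 5.78, 6.17, 6.08 and 5.89, and the Schwann cell and nerve mean 5.739, 5.743, 5.81 and 5.38. By these means DMSO 4 and DMSO 1 were lowest in these lists too, with DMSO 1 and DMSO 2 nearly alike in the Schwann cell and nerve list. Single markers of both lists differed in this. Among the DMSO samples CDH5, TEK and VWF were lowest in DMSO 1 and DMSO 4. EGFL7 was highest there (5.90 and 5.87), ERG was highest in DMSO 1 (5.81), and PECAM1 was 6.44 in DMSO 1 and 7.37 in DMSO 4. MBP was lowest in DMSO 4 (4.42, against 7.59 to 8.08 in the other DMSO samples), while PMP22 (9.07) and GAP43 (6.46) were highest there. Of the cartilage and bone markers ACAN (2.66) rose and MATN4 (-2.86) fell under RA, and ACAN (2.61) and SP7 (0.73) rose under LE135. Of the macrophage and neutrophil markers CYBA (0.40) and MMP9 (0.37) rose and SPI1 (-0.60) fell under LE135. The part of tissue composition in the CYP26 values was not tested.

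The genes whose pattern over the 12 samples was most like that of CYP26A1, by Pearson correlation among 8639 named genes, were DHRS3 (r = 0.981), CAMK2D (0.965), SWAP70 (0.958), ACAN (0.951) and BCAN (0.945). DHRS3 reduces retinaldehyde back to retinol and CAMK2D is a calcium-dependent kinase, while ACAN and BCAN are proteoglycans. For CYP26B1 they were RBPMS, an RNA-binding protein (0.987), FLRT2, a membrane protein (0.982), RARG, a retinoic acid receptor (0.967), PAX6, a transcription factor (0.963) and HDLBP (0.951). For CYP26C1, at its low level, the highest correlation was 0.883, with CRBN. The points share the treatment steps, so these values describe likeness of pattern over 12 arrays and carry no test.

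DHRS3, the gene of highest correlation, was chosen over these same samples, so its likeness to CYP26A1 within the vehicle group is part of that choice. It stood at 12.34, 12.32, 12.48 and 12.58 in RA 1 to RA 4, at 11.79 to 12.09 in the 4 LE135 samples, and at 9.91, 10.72, 10.72 and 9.36 in DMSO 1 to DMSO 4. As with CYP26A1, DMSO 4 and DMSO 1 were low and DMSO 2 and DMSO 3 high, over a narrower range. In both drug groups all 4 samples lay above all DMSO samples.

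**Figure D3:**
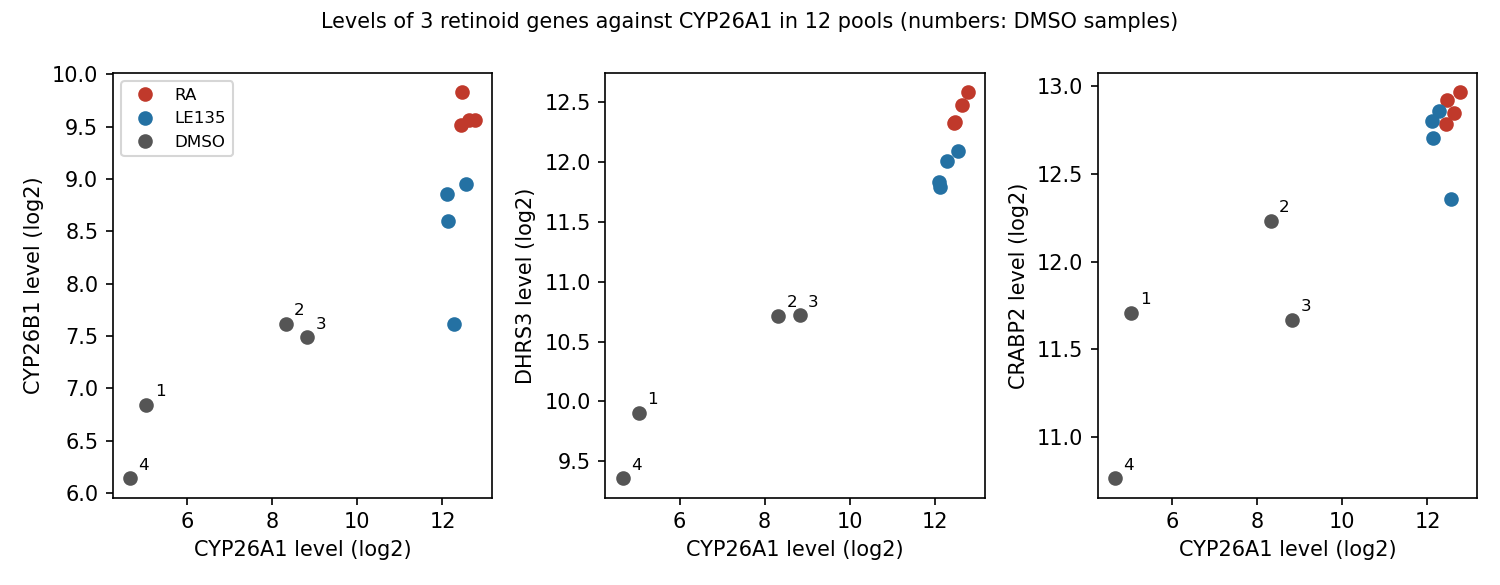
Log2 levels of CYP26B1, DHRS3 and CRABP2 (vertical axes) against the log2 level of CYP26A1 (horizontal axis) in the 12 samples, with RA in red, LE135 in blue and DMSO in grey, and numbers beside the DMSO samples. DMSO 4 has the lowest level of all 4 genes, and DMSO 2 and DMSO 3 have the highest CYP26A1 and DHRS3 levels of the vehicle group.

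The rest of the retinoid pathway gives the setting of the CYP26 rises. Of 51 measured genes in the lists of retinoid enzymes, carriers, receptors, coregulators, electron donors and known retinoic acid targets, 9 rose and 0 fell under RA, and 9 rose and 0 fell under LE135. The lists leave out the CYP26 genes and were drawn up with earlier results of these data known, so the counts are not independent evidence of direction. Their median log2 differences were 0.07 under RA and 0.06 under LE135, beside -0.01 and 0.01 for all probe sets, of which 1.62% rose and 1.01% fell under RA and 0.893% rose and 1.19% fell under LE135. Without DMSO 4 and LE135 4 the counts were 13 higher and 1 lower under RA and 12 and 0 under LE135, and ACTN4 was the gene that fell, named after its values were seen. In fits of the 8 compared samples alone they were 8 and 0 under RA and 0 and 0 under LE135.

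Among 10 enzymes that make, reduce or oxidize retinaldehyde or release retinoids, 3 rose under each drug, DHRS3, SDR16C5 and ALDH1A3. DHRS3 rose by 2.25 under RA (SE 0.26, adjusted p = 0.00136) and by 1.75 under LE135 (SE 0.26, adjusted p = 0.00587). SDR16C5, a retinol dehydrogenase, rose by 1.60 under RA (adjusted p = 0.00430) and by 1.13 under LE135 (adjusted p = 0.0275). ALDH1A3, which makes retinoic acid from retinaldehyde, rose by 1.06 under RA (adjusted p = 0.0229) and by 1.26 under LE135 (adjusted p = 0.0113). In ALDH1A3 the levels were 10.57, 10.42, 10.26 and 10.50 in RA 1 to RA 4, 10.79, 11.03, 10.64 and 10.09 in LE135 1 to LE135 4, and 9.70, 9.62, 9.32 and 8.89 in DMSO 1 to DMSO 4. Both drug groups lay above DMSO. ALDH1A2, the retinaldehyde dehydrogenase of the early embryo, averaged 3.43 in RA, 3.40 in LE135 and 3.36 in DMSO, near the lowest values of the arrays. Leaving out RA 1, RA 2, RA 4 or DMSO 3 ended the RA call of ALDH1A3 (adjusted p up to 0.0777), and leaving out DMSO 1, DMSO 3, LE135 1, LE135 3 or LE135 4 ended the LE135 call of SDR16C5 (adjusted p up to 0.0884).

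Of 8 carriers and uptake genes CRABP2 rose, which carries retinoic acid to its receptors in the nucleus. It stood at 12.92, 12.79, 12.85 and 12.96 in RA 1 to RA 4, at 12.70, 12.80, 12.35 and 12.86 in LE135 1 to LE135 4, and at 11.71, 12.23, 11.67 and 10.77 in DMSO 1 to DMSO 4. Its rise was 1.29 under RA (adjusted p = 0.0186) and 1.08 under LE135 (adjusted p = 0.0451). The RA call ended without RA 1, RA 2 or RA 4 (adjusted p up to 0.0604). The LE135 call held in 2 of 12 omissions, of DMSO 2 or DMSO 4 (adjusted p up to 0.118 otherwise, without LE135 1), and ended with the replicate block (adjusted p = 0.0638).

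Of 3 measured receptors RARG rose, by 0.70 under RA (SE 0.08, adjusted p = 0.00201) and by 0.39 under LE135 (SE 0.08, adjusted p = 0.0423). The LE135 call held in 3 of 12 omissions, of DMSO 2, DMSO 4 or LE135 4 (adjusted p up to 0.122 otherwise, without LE135 1). A second probe set of RARG differed by 0.08 under RA and 0.06 under LE135 and did not pass. RARA read low, averaging 3.84 in RA, 3.77 in LE135 and 3.72 in DMSO, beside array minima of 3.05 to 3.15. Whether RARA was above background was not tested. RARB, the receptor that LE135 is known for, was not among the named probe sets.

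Of 10 measured coregulators NRIP1, which binds ligand-bound receptors and represses them, rose by 1.36 under RA (adjusted p = 0.000166) and by 0.45 under LE135 (adjusted p = 0.0483). Its LE135 call held in 1 of 12 omissions, that of LE135 4 (adjusted p up to 0.119 otherwise, without LE135 2). NRIP1 was also higher in RA than in LE135, by 0.91 (adjusted p = 0.0184), a call that ended without RA 2, RA 3, RA 4 or LE135 1 (adjusted p up to 0.123). NCOA3, a coactivator, rose by 1.26 under RA (adjusted p = 0.0138) and differed by 0.91 under LE135 (adjusted p = 0.0624, or 0.00981 with the replicate block).

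CYP26 enzymes need electrons from the reductase POR, which differed by 0.04 under RA (adjusted p = 0.982) and by 0.28 under LE135 (adjusted p = 0.833). POR stood at 8.19, 8.26, 7.96 and 8.01 in RA 1 to RA 4, at 8.08, 8.06, 7.97 and 9.29 in LE135 1 to LE135 4, and at 7.63, 7.69, 7.74 and 9.23 in DMSO 1 to DMSO 4. DMSO 4 and LE135 4 lay above all other samples. Without these 2 samples POR was higher by 0.42 under RA and by 0.36 under LE135 and passed (limma adjusted p = 0.0115 and 0.0406). These values are of the probe set with the highest mean. In the fit over 12 samples a second probe set of POR differed by 0.15 under RA and 0.37 under LE135. It did not pass (limma adjusted p = 0.890 and 0.680). Of the 5 measured electron donors CYB5A, a cytochrome b5, rose under LE135, by 0.95 (adjusted p = 0.0224), and differed by 0.69 under RA (adjusted p = 0.0827). The LE135 call ended without DMSO 1, DMSO 2 or DMSO 3 (adjusted p up to 0.0668).

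Of 19 measured genes known as retinoic acid targets in vertebrates, 5 rose under each drug. MEIS1 and MEIS2, homeobox factors of proximal limb identity, differed by 0.94 and 1.03 under RA (adjusted p = 0.000499 and 0.0103) and by 0.59 and 0.47 under LE135 (adjusted p = 0.00675 and 0.236). The 2 other probe sets of MEIS2 differed by 0.84 (adjusted p = 0.0438) and by 0.63 (adjusted p = 0.0873, not past the threshold) under RA. DHRS3, CRABP2 and NRIP1, given above, were the other 3 under RA. Under LE135 they were joined by MEIS1 and by BHLHE40, a transcriptional repressor, at 1.03 (adjusted p = 0.0442), whose call held only without DMSO 4 or LE135 4 among the 12 omissions (adjusted p up to 0.126 otherwise) and ended with the replicate block (adjusted p = 0.0589).

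The other cytochromes P450 did not share the CYP26A1 and CYP26B1 differences in size. Among 12 of them the log2 differences ran from -0.39 to 0.56 under RA and from -0.19 to 0.75 under LE135, and their DMSO SDs from 0.04 to 0.42. CYP26C1 lay within these ranges, at -0.17 under RA and 0.01 under LE135, with a DMSO SD of 0.07. CYP27A1, a sterol hydroxylase, was the 1 that rose, by 0.56 under RA (adjusted p = 0.0441) and by 0.75 under LE135 (adjusted p = 0.0121). Its RA call held in 4 of 12 omissions, of DMSO 4, LE135 2, LE135 3 or LE135 4 (adjusted p up to 0.118 otherwise, without RA 3). Of the genomic neighbours of the CYP26A1 and CYP26C1 pair, MYOF differed by -0.07 under RA and -0.26 under LE135 (limma adjusted p = 0.911 and 0.562). EXOC6 differed by 0.02 and -0.06 (limma adjusted p = 0.971 and 0.920). These values are of the probe set with the highest mean, of 4 for MYOF and 3 for EXOC6, and the others are not given. EXOC6B, beside CYP26B1, was not among the named probe sets.

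**Figure D4:**
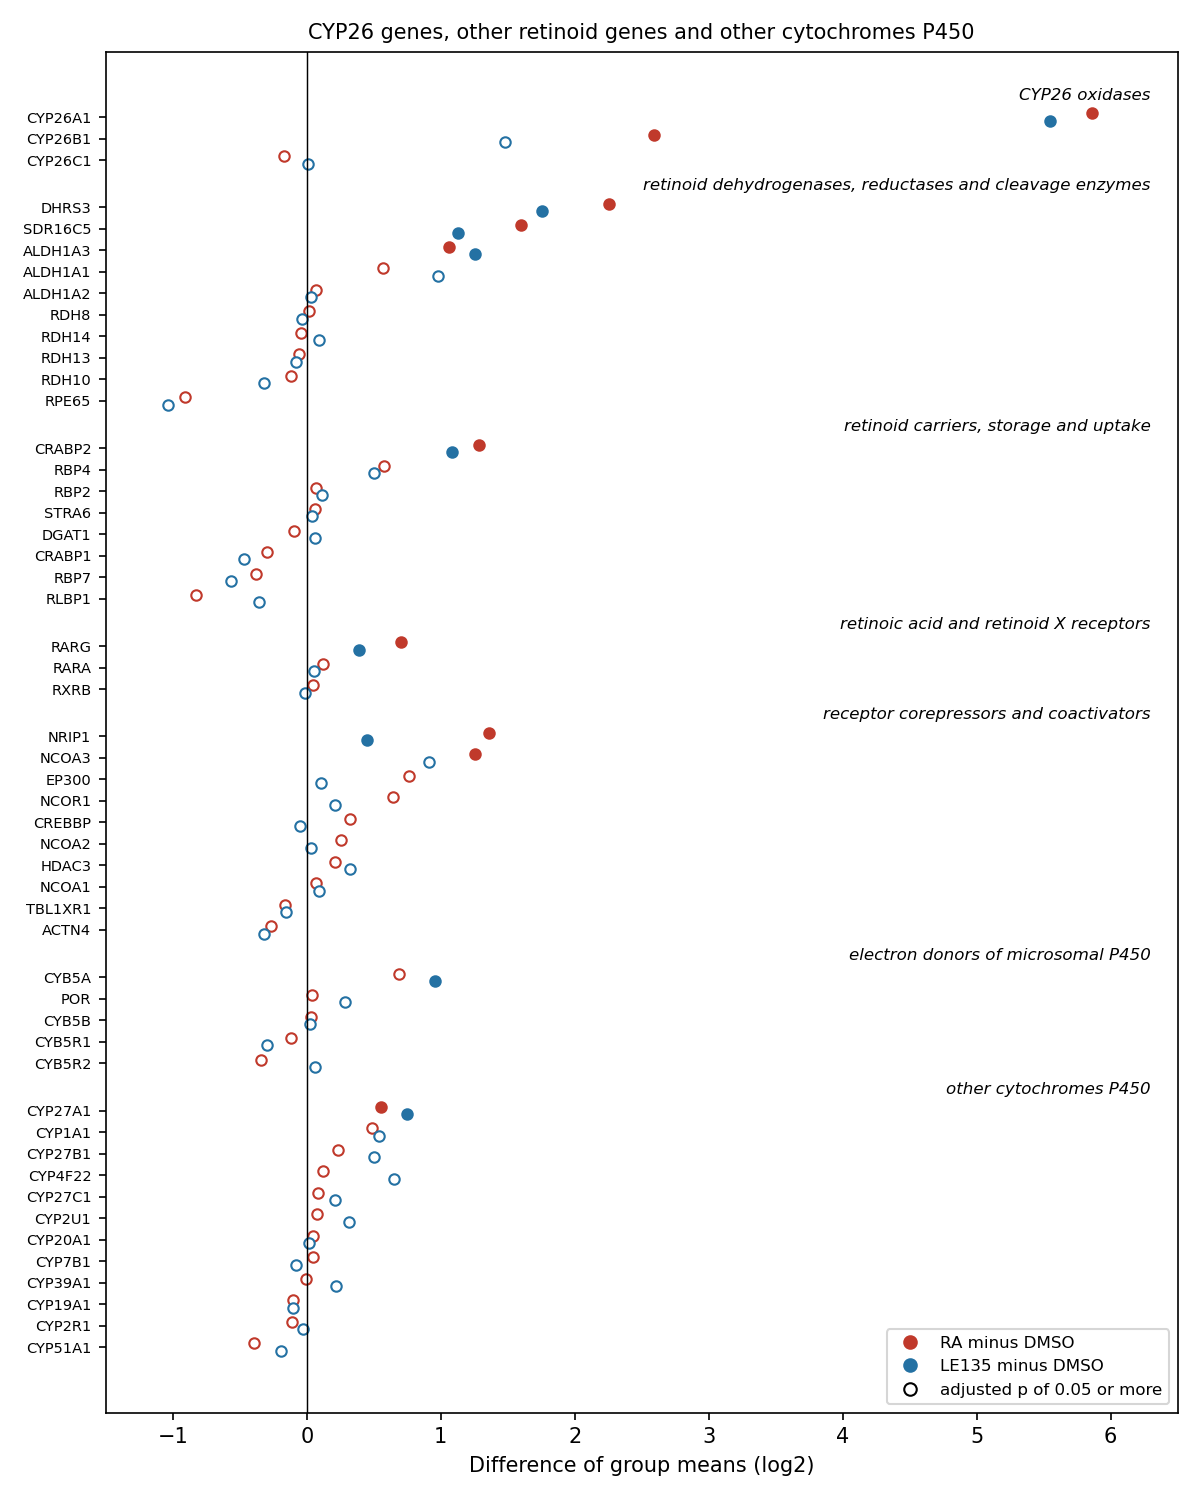
Log2 differences from DMSO (horizontal axis) for the CYP26 genes, the retinoid lists other than known targets, and other cytochromes P450 (rows), RA in red and LE135 in blue. Filled points passed the adjusted threshold and open points did not. CYP26A1, at 5.87 and 5.55, lies far to the right of every other gene shown, CYP26B1 is at 2.59 and 1.48, and DHRS3, at 2.25 and 1.75, has the largest differences outside the family.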

How the data were processed

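The authors deposited log2 values for 20080 probe sets in 12 arrays, made with RMA per the submitters' processing notes (its version is not stated). The total RNA was labelled with an Affymetrix 3′ kit, per the labels' protocols. No detection calls were used. Leaving out 45 control probe sets gave 20035, of which 10951 had 1 gene symbol in the platform's annotation and the rest none. All 8639 symbols were found in the RefSeq gene table (assembly UKY_AmexF1_1), which was used for names and neighbours. A gene with more than 1 probe set was represented by that of the highest mean over the 12 samples.

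The model, run in limma 3.58.1 under R 4.3.3, gave each treatment its own mean and used all 12 samples. Alternatives were a fit of the 8 compared samples, the sample number as a block, a trended robust prior, a mean level of at least 5, median centring, array weights, an exact permutation test, and omission of samples. Precision is limited by how many arrays there are. The labels gave no batch. The treatments share sample numbers 1 to 4. Deviations from the group means of same-numbered LE135 and DMSO samples correlated at 0.126 to 0.607, over 0.1 in 4 of 4 pairs. The sample titles state no pairing, and these correlations do not establish one. Only 3 of the 8 samples correlated best with their own number, beside 3 of 8 for RA and DMSO and 4 of 8 for RA and LE135. The value of 0.607 was that of DMSO 4 with LE135 4, and samples of unlike number also correlated, as DMSO 2 with LE135 1 (0.393). Over 0.1 were 1 of 4 RA and DMSO pairs and 2 of 4 RA and LE135 pairs. The main fit used no pairing, and the block is an alternative only.

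The members, gene lists and alternatives were chosen with earlier results of these data known. Named were the 3 CYP26 genes, up to 6 genes per list past the threshold under a drug, 10 retinoid genes whatever their values, the 5 most alike in pattern, and the 5 of largest DMSO SD. MYOF and EXOC6 were added for their position, and CYP26C1's single closest gene stands for its 5. The lists of the other marker genes (cartilage and bone, macrophage and neutrophil, erythrocyte, endothelium, Schwann cell and nerve) were also averaged.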

Additional observations from a re-analysis of the deposited data

Results flagged for a closer look

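Within groups of 4, a sample was singled out when its gap to the nearest other sample took up more of the group's range than Dixon's 95% critical value. Of 54 groups (18 genes in 3 treatments) 6 had such a sample, and chance alone gives about 1 in 20. CYP26B1 was high in RA 1, at 9.83 against 9.51 to 9.56 in the other RA samples. CYP26C1 was low in RA 3, at 3.61 against 3.87 to 3.92 in the others. POR was high in DMSO 4, at 9.23 against 7.63 to 7.74, and in LE135 4, at 9.29 against 7.97 to 8.08. BHLHE40 was high in LE135 4, at 7.54 against 6.35 to 6.42, and MEIS2 was low in DMSO 4, at 9.14 against 9.93 to 10.06.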

How the results depend on the processing

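Omission of 1 sample moved the CYP26A1 difference between 5.18 and 6.57 for RA minus DMSO, 4.87 and 6.25 for LE135 minus DMSO, and 0.25 and 0.41 for RA minus LE135. For CYP26B1 the ranges were 2.30 to 2.79, 1.19 to 1.78 and 0.82 to 1.26, and for CYP26C1 -0.20 to -0.10, -0.02 to 0.04 and -0.21 to -0.11. The F test's adjusted p ran from 0.00310 to 0.0133, 0.00226 to 0.0236 and 0.289 to 0.594. The CYP26A1 rise under LE135, 5.55, missed the threshold in the fit of 8 samples (adjusted p = 0.0502) and in no other limma fit. CYP26B1 under LE135 passed at 1.48 with a trended robust prior (0.0442), with probe sets of mean level at least 5 (0.0415) and without DMSO 4 and LE135 4 (0.00270), and at 1.36 with array weights (0.00342), and its adjusted p over all alternatives ran up to 0.190. CYP26B1 for RA minus LE135 passed with array weights (0.94) and in no other limma fit. CYP26B1 and CYP26C1 for RA minus LE135 had an exact permutation p of 0.0286 each, unadjusted, which follows from their groups not overlapping. The cause of these changes was not tested.

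No pairing of the treatments by sample number was established. The replicate block was run as an alternative and covered all 12 samples. With the number as a replicate block CYP26B1 passed under LE135 at 1.48 (adjusted p = 0.0212). The block changed the LE135 calls of CRABP2, BHLHE40 and NCOA3, as given above, and no other LE135 call of the named genes. Probe sets past the threshold for RA minus LE135 numbered 11 with it.

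Probe sets past the threshold numbered 528, 418 and 4 for RA minus DMSO, LE135 minus DMSO and RA minus LE135. They were 340, 111 and 10 in the fits of 8 samples, 1362, 1265 and 186 with array weights, 1530, 1027 and 43 without DMSO 4 and LE135 4, and 231 to 671, 220 to 742 and 1 to 13 over omissions of 1 sample. Of the 51 retinoid genes, 7 to 11 were higher and 0 lower under RA over the omissions, and 4 to 9 and 0 under LE135. The count under LE135 was 0 higher in the fit of 8 samples, and 1 gene, ACTN4, was lower with array weights under RA (1) and LE135 (1) and without DMSO 4 and LE135 4 under RA (1). Of 849 values for 15 other named genes, 86 lost a call, 19 gained one and 0 turned sign with a call. No CYP26 gene had another named probe set, so that alternative gave no value.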
